A study of Mus musculus with 2 samples.

Results

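Transcripts of 10 C-type lectin genes of myeloid cells were followed across dendritic cells (DC), monocytes and macrophages of the neonatal and adult mouse lung. The genes were Clec4b1, Cd209a, Cd209d, Mgl2, Clec10a, Clec12a, Clec4a2, Clec4n, Mrc1 and Cd207, chosen by symbol as 10 of the 32285 genes counted, and each was found once. Cells came from Zbtb46-cre x Rosa26-YFP mice, in which cells that express Zbtb46, a transcription factor of classical DC, or that descend from such cells carry YFP, so YFP+ cells other than DC can enter the sort. Live CD45.2+ YFP+ lung cells were sorted at 7 days of age (neonatal, 2 pools) and at 8 weeks of age (adult, 2 pools), each pool holding at least 5 mice and prepared on its own, and their transcripts were counted in droplets cell by cell (10x Genomics 3' chemistry, with unique molecular identifiers, UMIs). The 2 pools of an age carried different hashtags and were loaded together, so age and loading cannot be told apart. All groups share the Cre and reporter alleles, and no group without them was analysed here.

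C-type lectins are receptors with a carbohydrate-recognition fold that bind sugars, lipids or other ligands on microbes and on damaged or normal host cells. Some act mainly as uptake receptors that carry cargo to endosomes, as do the mannose receptor Mrc1, langerin (Cd207), the DC-SIGN homologue Cd209a and the galactose-type lectins Mgl2 and Clec10a. Others signal: Clec4n (Dectin-2) and Clec4b1 (DCAR) pair with the adaptor Fcer1g and activate Syk, whereas Clec4a2 (DCIR) and Clec12a (MICL) carry an inhibitory motif that recruits phosphatases. In the lung these receptors are best known for sensing fungi and mycobacteria and for marking DC and macrophage subsets.

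The genes lie on 4 chromosomes of the mouse genome (build GRCm38, GENCODE M21 annotation). Clec4b1 (ENSMUSG00000030147, chr6:123049962-123071555, plus strand), Clec4a2 (ENSMUSG00000030148, chr6:123106428-123143999, plus strand) and Clec4n (ENSMUSG00000023349, chr6:123229843-123247021, plus strand) lie in the Dectin-2 cluster, and Clec12a (ENSMUSG00000053063, chr6:129342691-129365303, plus strand) lies further along chromosome 6. Cd207 (ENSMUSG00000034783, chr6:83671215-83677857, minus strand) is on the same chromosome outside that cluster. Cd209a (ENSMUSG00000031494, chr8:3743397-3748984, minus strand) and Cd209d (ENSMUSG00000031495, chr8:3871824-3878555, minus strand) belong to the DC-SIGN cluster, Mgl2 (ENSMUSG00000040950, chr11:70130329-70137550, plus strand) and Clec10a (ENSMUSG00000000318, chr11:70156197-70170834, plus strand) are a pair on chromosome 11, and Mrc1 (ENSMUSG00000026712, chr2:14229392-14332057, plus strand) stands alone.

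Because genes of the same cluster moved in opposite directions with age in the same cells, the promoters of 2 such pairs are shown. Each is the 250 bases before the RefSeq start (GRCm38.p6), read in the direction of transcription, with GAGGAA or its reverse complement TTCCTC, the core bound by the myeloid factor PU.1, in capitals.
Cd209a, chr8:3748985-3749234, minus strand: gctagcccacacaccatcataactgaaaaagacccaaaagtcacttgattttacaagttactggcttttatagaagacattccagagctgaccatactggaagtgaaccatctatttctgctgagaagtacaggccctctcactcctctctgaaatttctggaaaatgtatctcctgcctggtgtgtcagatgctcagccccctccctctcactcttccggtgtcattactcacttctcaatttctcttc
Cd209d, chr8:3878500-3878749, minus strand: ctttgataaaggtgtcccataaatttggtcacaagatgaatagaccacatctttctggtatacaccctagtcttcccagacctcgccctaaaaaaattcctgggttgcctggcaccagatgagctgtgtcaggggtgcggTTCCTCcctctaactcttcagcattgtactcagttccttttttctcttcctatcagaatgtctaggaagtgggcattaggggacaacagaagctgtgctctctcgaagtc
Clec4b1, chr6:123049712-123049961, plus strand: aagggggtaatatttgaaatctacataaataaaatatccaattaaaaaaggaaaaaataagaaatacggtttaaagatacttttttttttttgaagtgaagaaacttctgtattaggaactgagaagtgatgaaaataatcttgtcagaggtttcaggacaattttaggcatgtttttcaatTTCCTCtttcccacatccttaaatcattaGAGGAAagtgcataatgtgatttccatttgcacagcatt
Clec4a2, chr6:123122440-123122689, plus strand: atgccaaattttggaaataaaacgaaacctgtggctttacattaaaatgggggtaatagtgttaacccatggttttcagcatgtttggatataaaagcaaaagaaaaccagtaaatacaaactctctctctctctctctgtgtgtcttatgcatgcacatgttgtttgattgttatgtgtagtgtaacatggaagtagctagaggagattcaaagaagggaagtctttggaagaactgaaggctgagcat
RefSeq starts were matched for 8 of the 10 genes, and the start used for Clec4a2 lies inside its GENCODE span. GAGGAA stood on either strand in 6 of these 8 windows (3 times in Mrc1, 2 times in Clec4b1 and in Clec12a, once in Cd207, Cd209d and Mgl2) and in 23.3% of all 32851 promoter windows. It was absent from the windows of Cd209a and Clec4a2, which instead held TATAAA, present in 12.4% of all windows. Clec4b1 alone among the 8 held the interferon regulatory factor pattern, GAAA repeated after a gap of 2 bases (2.98% of all windows) and the RBPJ pattern GTGGGAA (5.42%). The AP-1 pattern TGANTCA (6.75%) was found in Cd207 and Clec12a, and the C/EBP pattern TTGCNNAA (9.56%) in Clec12a. All patterns were searched on both strands, and a match is a match of letters, not a measured binding site.

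The pairs also differ in how alike their transcripts are, which bears on counting. Aligned coding sequences of Mgl2 and Clec10a were 90.9% identical over 924 bases, but the longest run shared by the last 500 transcript bases, where 3' reads fall, was 10 bases. Clec4b1 and Clec4a2 were 88.4% identical over 627 bases and shared a run of 64 bases there, so reads of these genes could have been split or dropped and their values are less certain. Cd209a and Cd209d were 67.3% identical with a longest shared run of 9 bases.

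After filtering, 12740 cells were kept, with median depths of 3052 to 3721.5 UMIs per cell in the 4 pools and 8172362 to 20346024 gene UMIs per pool before filtering. Clusters were formed without the 10 genes and without 38 other measured C-type lectin genes, and were named from marker lists that hold none of the 10. The labelled sort was for DC, and the cells held cDC1 (780, 720, 316 and 236 cells, in the order neonatal 1, neonatal 2, adult 1, adult 2 used for all values below), cDC2 (349, 207, 93 and 75), mature DC (528, 529, 108 and 100), classical monocytes (509, 462, 219 and 199), nonclassical monocytes (1323, 1420, 278 and 300) and macrophages with complement C1q transcripts (41, 39, 23 and 24), together with neutrophils and lymphocytes. Single markers bore out the names of cDC1 and mature DC. Xcr1 was at 363, 399, 307 and 277 UMIs per 1000000 (CPM) in cDC1 and at most 12.3 CPM in cDC2. Ccr7 was at 1547 CPM or more in mature DC, and Zbtb46 was at most 6.4 CPM in the monocytes. The cDC2 name rests on less: its 12 markers summed to 3489, 3586, 4550 and 4848 CPM in cDC2. In mature DC they came to 2646, 2758, 4033 and 4671 CPM, and in macrophages to 3150, 3458, 3907 and 4615 CPM. The 11 C1q macrophage markers summed to 8239, 9916, 3099 and 9503 CPM in macrophages and 1807, 1862, 5520 and 6545 CPM in nonclassical monocytes. The pools also differed in sex transcripts: neonatal pool 1 and most of pool 2 carried Xist, with Y-linked transcripts at 1.41 and 25.2 CPM, and the adult pools carried Y-linked transcripts (164 and 178 CPM) and almost no Xist, so age and sex largely coincide.

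Values below are UMIs of a gene per 1000000 UMIs of a class in a pool (CPM), the pool is the replicate (n = 2 per age), log2 differences are neonatal over adult ± standard error from edgeR's quasi-likelihood test, and a call is a Benjamini-Hochberg adjusted p under 0.05 over all genes tested in the class. Shares of cells are shares with at least 1 UMI after each cell was thinned to 1500 UMIs. Free RNA was gauged in adult NK cells (250 and 269 cells, median 2565.5 and 2666 UMIs, against 6564 to 7958 in cDC1 and cDC2 pools), in which the thinned share was 0 to 1.52% for every one of the genes, and adult shares at or below that are read as background. The neonatal pools held 9 and 13 NK cells, too few to gauge it there. In the summed counts of a class, fewer cells with a transcript and fewer transcripts per cell cannot be told apart, and intervals and floors cover counting error only. An SD over 2 pools can fall below the counting error, as in macrophages, where adult Clec12a rests on 47 UMIs. A small SD is therefore not a sign of precision.

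Across classes the genes fell into 2 kinds of distribution, which the plot of CPM by class and pool shows. Among the classes compared between ages, Mgl2, Cd209a and Mrc1 were concentrated in cDC2 and C1q macrophages, and Cd207 in cDC1. For Mrc1 this held for cDC2 in adults only, and its level was higher still in the neonatal alveolar macrophages described below. In adults Mgl2 was at 2154 ± 268 CPM (SD) in cDC2 and 1277 ± 267 CPM in macrophages, followed by cDC1 (77.0 ± 47.0), by mature DC (23.5 ± 26.9) and classical monocytes (14.7 ± 8.3), whose pools overlapped, and by nonclassical monocytes (4.02 CPM). Cd209a had the same leading classes in adults, with 1154 ± 9.0 CPM in cDC2 and 350 ± 46.5 in macrophages, then overlapping levels in classical monocytes (74.2 ± 36.5) and cDC1 (50.9 ± 11.8). Mrc1 reversed their order: in adults macrophages (405 ± 99.2 CPM) stood above cDC2 (308 ± 32.5), with the lower macrophage pool (335 CPM) close to the higher cDC2 pool (331 CPM). In adults Clec10a was highest in cDC2 (262 ± 86.4 CPM), and classical monocytes (71.1 ± 11.6) stood above macrophages (36.5 ± 4.50). In neonates the gap between macrophages and cDC2 for Mrc1 was wider, with 176 ± 54.6 CPM in macrophages against 16.5 ± 4.32 in cDC2.

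**Figure D1:**
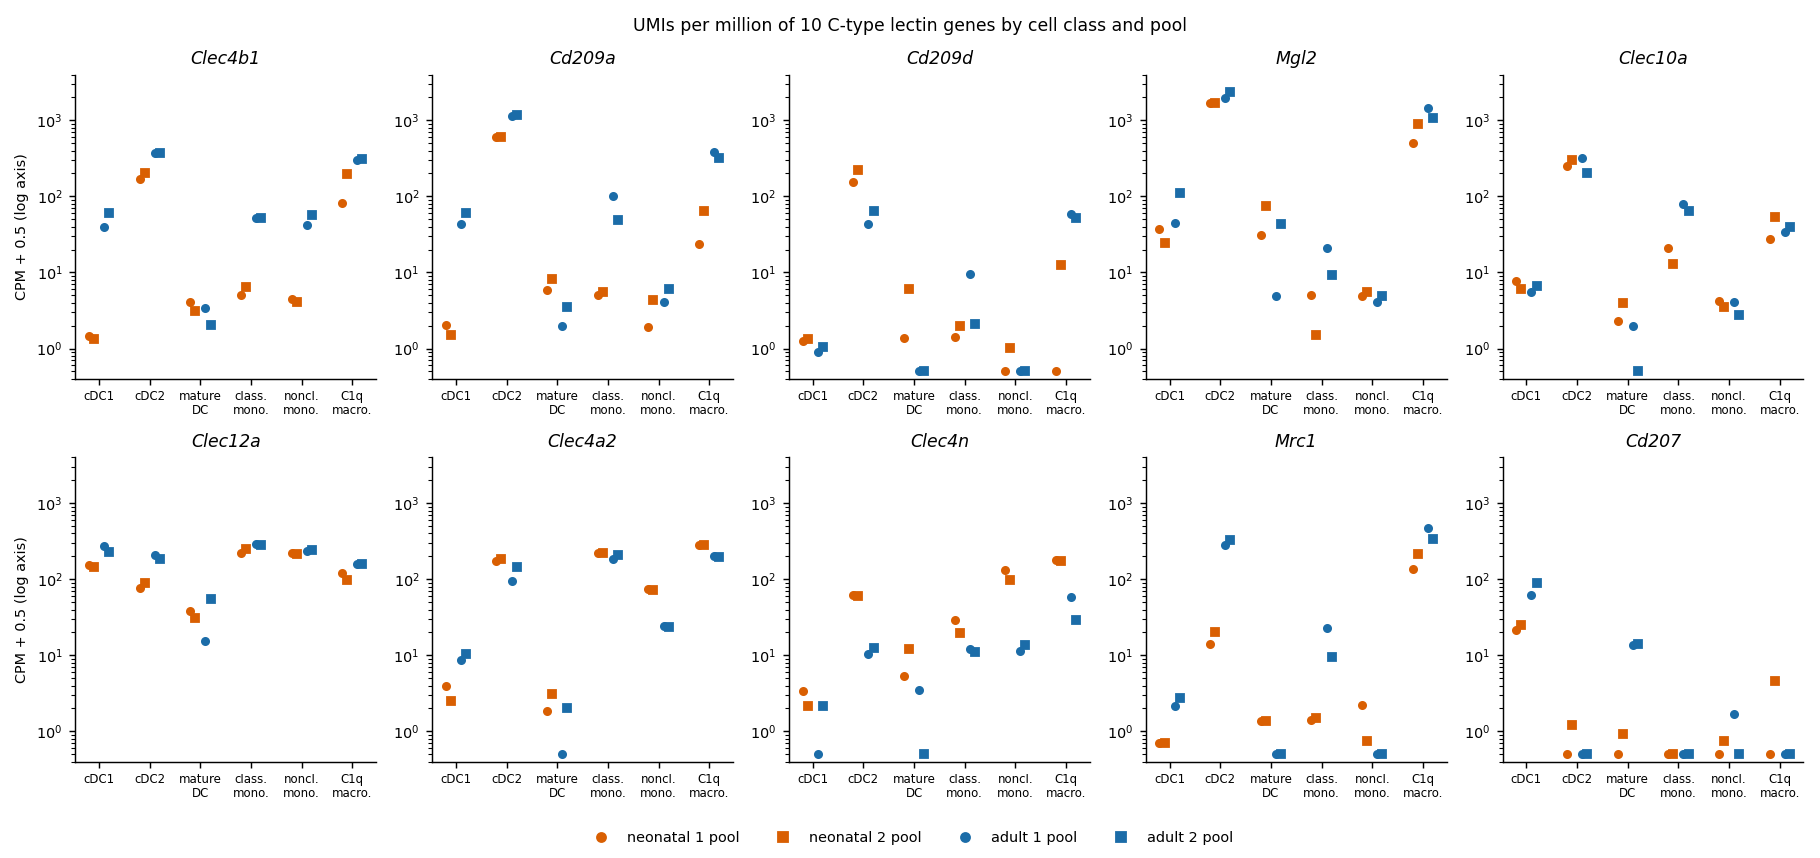
UMIs per 1000000 (CPM, with 0.5 added, log axis) of the 10 genes in 6 cell classes; each point is 1 pool, circles pool 1 and squares pool 2, orange neonatal and blue adult. Points near 0.5 are pools with 0 UMIs; Mgl2 and Cd209a peak in cDC2 and macrophages, Clec12a is at 76.7 CPM or more in every class except mature DC, and Cd207 is above 20 CPM only in cDC1.

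Of the signalling receptors, Clec12a, Clec4a2 and Clec4n were spread more widely over the same classes, to which the rankings here are limited. Clec4b1 was concentrated in cDC2 and macrophages, as Cd209a was. Clec12a was at 76.7 to 293 CPM in the pools of every class except mature DC (14.7 to 54.7 CPM), with classical monocytes highest in adults (288 ± 7.66 CPM), then cDC1 (250 ± 29.4) and nonclassical monocytes (237 ± 6.77), whose pools overlapped, cDC2 (195 ± 18.7) and macrophages (159 ± 0.330). Clec4a2 was highest in macrophages (283 ± 0.260 CPM in neonates), followed by classical monocytes (222 ± 2.16), cDC2 (179 ± 6.02) and nonclassical monocytes (73.1 ± 2.43), with no overlap between neighbours in this neonatal order. cDC1 and mature DC had under 10 CPM of Clec4a2 in each pool. Clec4n in neonates led in macrophages (176 ± 3.12 CPM) and nonclassical monocytes (114 ± 24.2), followed by cDC2 (60.8 ± 1.15) and classical monocytes (23.9 ± 6.44), again without overlap. Clec4b1 in adults was at 373 ± 4.26 CPM in cDC2 and 303 ± 4.42 in macrophages, and at overlapping levels in classical monocytes (51.4 ± 0.335), cDC1 (49.0 ± 14.5) and nonclassical monocytes (48.7 ± 9.76).

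Among cDC2, which present antigen mainly to CD4 T cells, 8 of the 9 genes tested differed between ages: 5 were higher in adults and 3 in neonates. Over all 7739 genes tested in cDC2, 9.47% were called higher in adults and 6.23% higher in neonates. All cDC2 fell in 1 cluster at both ages, and Cd207 was at 0 to 1 UMI in each pool and was not tested. A shared cluster does not mean a like make-up, since cell-cycle genes were left out of the clustering. The 8 proliferation markers summed to 1017, 722, 274 and 236 CPM in cDC2, and their part in these differences was not tested.

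Mrc1 had the greatest fold difference of these genes in cDC2. The neonatal pools held 13.4 and 19.5 CPM (32 and 27 UMIs), the adult pools 285 and 331 CPM (201 and 191 UMIs). Each adult pool exceeded each neonatal pool by over 10-fold, and the log2 difference was -4.46 ± 0.17 (edgeR adjusted p = 8.23e-153). The share of cDC2 with Mrc1 was 1.44% and 2.91% in neonates and 30.4% and 39.7% in adults. Markers of C1q macrophages, summed over 11 genes, moved the other way in cDC2 (239, 281, 172 and 191 CPM, 1 marker at 0 UMIs over the 4 pools). Those of alveolar macrophages came to 43.6, 54.9, 36.9 and 71.0 CPM, with 3 of 11 at 0, and their part in the result was not tested.

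The DC-SIGN homologues Cd209a and Cd209d, near neighbours on chromosome 8, moved in opposite directions in cDC2. Cd209a was at 601 and 612 CPM in neonates and at 1148 and 1161 CPM in adults, with the pools of an age close together, and was higher in adults (log2 -1.11 ± 0.07, edgeR adjusted p = 2.27e-54). Its share of cDC2 went from 48.3% and 50% to 70.7% and 72.6%. Cd209d, which encodes the receptor SIGNR3, was at 156 and 222 CPM in neonates and at 42.5 and 64.1 CPM in adults. Both neonatal pools lay above both adult pools for Cd209d (log2 1.64 ± 0.17, edgeR adjusted p = 3.17e-20), with shares of 16.7%, 20.9%, 4.35% and 9.59%.

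The galactose-type lectins Mgl2 and Clec10a, closely related and adjacent, also differed from each other. Mgl2 was at 1711, 1674, 1965 and 2344 CPM in cDC2, a small difference with adults higher in each pool (log2 -0.53 ± 0.05, edgeR adjusted p = 6.78e-20). Its share was 81.9% to 87.0% of cDC2 in every pool, so it marked most cDC2 at both ages. Clustering at resolution 0.5, which gave a cDC2 class of 372, 232, 131 and 102 cells, ended this call (log2 -0.20, edgeR adjusted p = 0.0888). Clec10a was at 251, 298, 323 and 201 CPM, with the adult pools on both sides of the neonatal ones, and was not called (log2 -0.14 ± 0.11, edgeR adjusted p = 0.466). Its direction turned without adult pool 1 (log2 0.26).

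Of the signalling receptors in cDC2, the activating members moved in opposite directions, and the inhibitory ones were called in opposite directions. Clec4b1, activating, was at 168 and 201 CPM in neonates and 370 and 376 CPM in adults (log2 -1.21 ± 0.11, edgeR adjusted p = 2.76e-27). Clec4n, also activating, was at 61.6 and 60.0 CPM in neonates and 9.92 and 12.1 CPM in adults, the latter resting on 7 UMIs per pool (log2 2.29 ± 0.32, edgeR adjusted p = 5.15e-11). The pools of the 2 ages did not overlap for either gene, and their differences had opposite signs. Clec12a, inhibitory, was at 76.7, 87.5, 208 and 182 CPM and was higher in adults (log2 -1.46 ± 0.14, edgeR adjusted p = 2.48e-23). Clec4a2, inhibitory, was at 174, 183, 93.6 and 146 CPM and was called higher in neonates (log2 0.41 ± 0.14, edgeR adjusted p = 0.0223). That call held in 7 of 14 alternative settings. It was lost without adult pool 1 (log2 0.11, edgeR adjusted p = 0.801), and also without neonatal pool 1 (log2 0.47, edgeR adjusted p = 0.0999) or neonatal pool 2 (log2 0.38, edgeR adjusted p = 0.188).

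**Figure D2:**
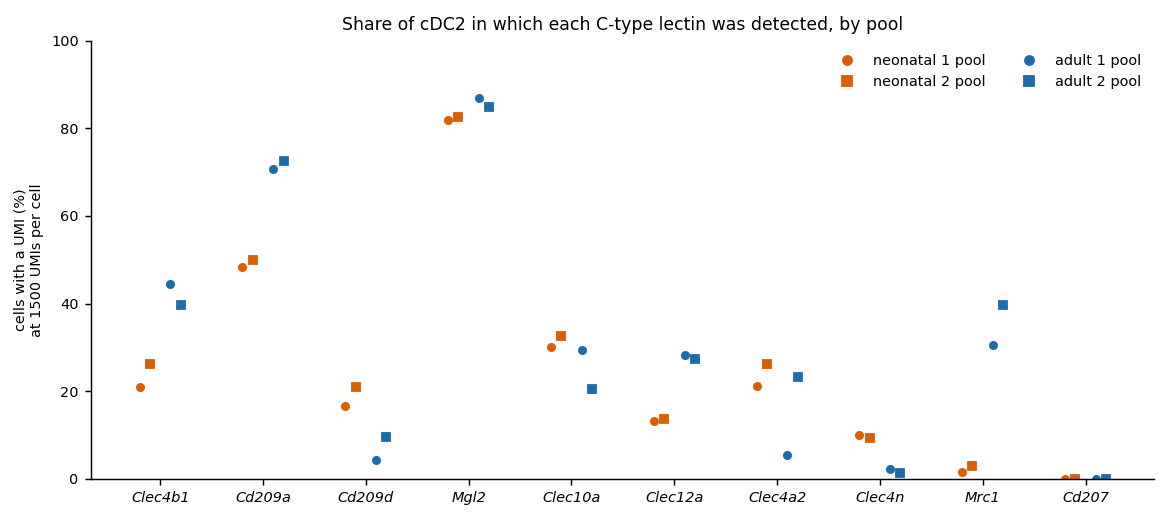
Share of cDC2 (%) with at least 1 UMI of each gene after every cell was thinned to 1500 UMIs; each point is 1 pool, orange neonatal and blue adult. Mrc1 goes from under 3% to over 30% of cells, Cd209a and Clec4b1 are also more frequent in both adult pools, and Cd209d and Clec4n are more frequent in both neonatal pools.

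Single cDC2 carried several of the transcripts together. At 1500 UMIs per cell the median number of the 10 genes detected was 2, 3, 3 and 3, and only 1.09% to 2.87% of cDC2 held none. The share with 3 or more was 43.4% and 54.4% in neonates and 65.2% and 67.1% in adults. Among cells with Cd209a, 83.9%, 86.4%, 86.2% and 88.7% also held Mgl2, against 81.9%, 82.5%, 87.0% and 84.9% of all cDC2, so these genes were found together about as often as their separate shares give. In neonates, 67.2% and 69.8% of the cells with Cd209d held Cd209a, against 48.3% and 50% of all. Cells with Clec4b1 held Cd209a in 37.0%, 50%, 73.2% and 86.2% of cases, against 48.3%, 50%, 70.7% and 72.6% of all. These shares are descriptions of cells within a pool and were not tested.

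In cDC1, which cross-present antigen to CD8 T cells, the members were scarcer, and 5 of 7 tested differed between ages, all 5 higher in adults. Over all 9878 genes tested in cDC1, 14.9% were called higher in adults and 12.0% higher in neonates. The median log2 difference of the 7 was -1.74, against -0.0015 over all genes tested. The low-count filter shaped this set: Clec4b1 (9 neonatal UMIs) and Cd209a (13) entered through the adult pools, and Clec4n, Cd209d and Mrc1 were left out. With no filter on low counts the median over all 10 was -1.50, against 0.0591 over all genes.

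Clec4b1 and Cd209a went from near absence in neonatal cDC1 to clear detection in adult cDC1. Clec4b1 was at 0.966 and 0.816 CPM in neonates (5 and 4 UMIs) and at 38.8 and 59.3 CPM in adults (94 and 107 UMIs), with a log2 difference of -5.74 ± 0.30 (edgeR adjusted p = 9.01e-27). Cd209a was at 1.55 and 1.02 CPM in neonates (8 and 5 UMIs) and at 42.5 and 59.3 CPM in adults (103 and 107 UMIs), with a log2 difference of -5.29 ± 0.27 (edgeR adjusted p = 2.89e-28). The neonatal shares were 0.513% and 0.139% for Clec4b1 and 0.385% and 0.279% for Cd209a. The adult shares were 5.14% and 9.21% for Clec4b1 and 4.82% and 6.14% for Cd209a, above the share in adult NK cells.

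Cd207, the endocytic lectin known from Langerhans cells and from CD103+ lung DC, was detected in cDC1 at both ages. It was at 21.1 and 24.5 CPM in neonates and at 61.9 and 89.2 CPM in adults, without overlap (log2 -1.76 ± 0.14, edgeR adjusted p = 5.56e-16). Clec12a was at 154, 143, 270 and 229 CPM and was higher in adults (log2 -0.81 ± 0.07, edgeR adjusted p = 1.26e-15). It is the gene of the 10 that most cDC1 showed, with shares of 22.9%, 19.5%, 32.5% and 29.8%. Clec4a2 was at 3.48, 2.04, 8.25 and 9.97 CPM, low at both ages, and was called higher in adults (log2 -1.74 ± 0.38, edgeR adjusted p = 0.000175). Its shares were 0.139% to 1.75%, in adults close to the background. Clec10a did not pass the test (7.15, 5.51, 4.95 and 6.09 CPM, log2 0.17 ± 0.36, edgeR adjusted p = 0.796). Cd209d (8 neonatal and 2 adult UMIs), Clec4n (23 and 3) and Mrc1 (2 and 8) had too few UMIs to be tested. Mrc1 was 9.53-fold higher in adult cDC1 by raw UMIs, with a 95% counting interval of 1.90 to 92.1.

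Mgl2 in cDC1 depended on which cells were counted. It was at 36.9, 23.9, 43.7 and 110 CPM, and the 2 adult pools differed more from each other than the lower one did from the neonates (log2 -1.32 ± 0.69, edgeR adjusted p = 0.362). At clustering resolution 2 the cDC1 class lost a cluster of 8, 1, 63 and 66 cells, called cluster 20 there, and Mgl2 was then higher in neonates (log2 1.19, edgeR adjusted p = 0.000521). Resolution 0.5 gave the same direction (log2 1.19, edgeR adjusted p = 0.000837). The cells lost with cluster 20 were mostly adult. A mostly neonatal cluster also led by Plet1, Ccl17 and Cldn1 (cluster 26, 51, 39, 4 and 0 cells) stayed in the class at resolution 2. The ages were therefore not trimmed alike, and the values at resolution 2 compare unlike sets of cells.

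The lost cluster 20 held much of the adult Cd209a and Mgl2 of the class. Its leading genes were Plet1, Ccl17, Cldn1 and Epcam, 1 marker of a named class was raised in it, and it carries no cell type name here. In its 63 and 66 adult cells Cd209a was at 202 and 186 CPM and Mgl2 at 289 and 364 CPM, beside Xcr1 at 103 and 118 CPM and Ccl17 at 3847 and 4258 CPM. In the largest adult cDC1 cluster at that resolution (cluster 13, 199 and 129 adult cells) Cd209a was at 19.6 and 16.1 CPM and Mgl2 at 10.7 and 21.8 CPM, with Xcr1 at 331 and 307 CPM. Clec4b1 was distributed the other way, with 49.9 and 89.3 CPM in cluster 13 and 35.3 and 12.4 CPM in the unnamed cluster. Cd207 was at 60.0 and 104 CPM in the former and at 58.8 and 60.0 CPM in the latter. In single thinned cells, 6 of 14 and 5 of 17 adult cDC1 with Mgl2 (42.9% and 29.4%) also held Cd209a, against 4.82% and 6.14% of all adult cDC1. Of those with Clec4b1, 1 of 16 and 4 of 21 held Cd209a.

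**Figure D3:**
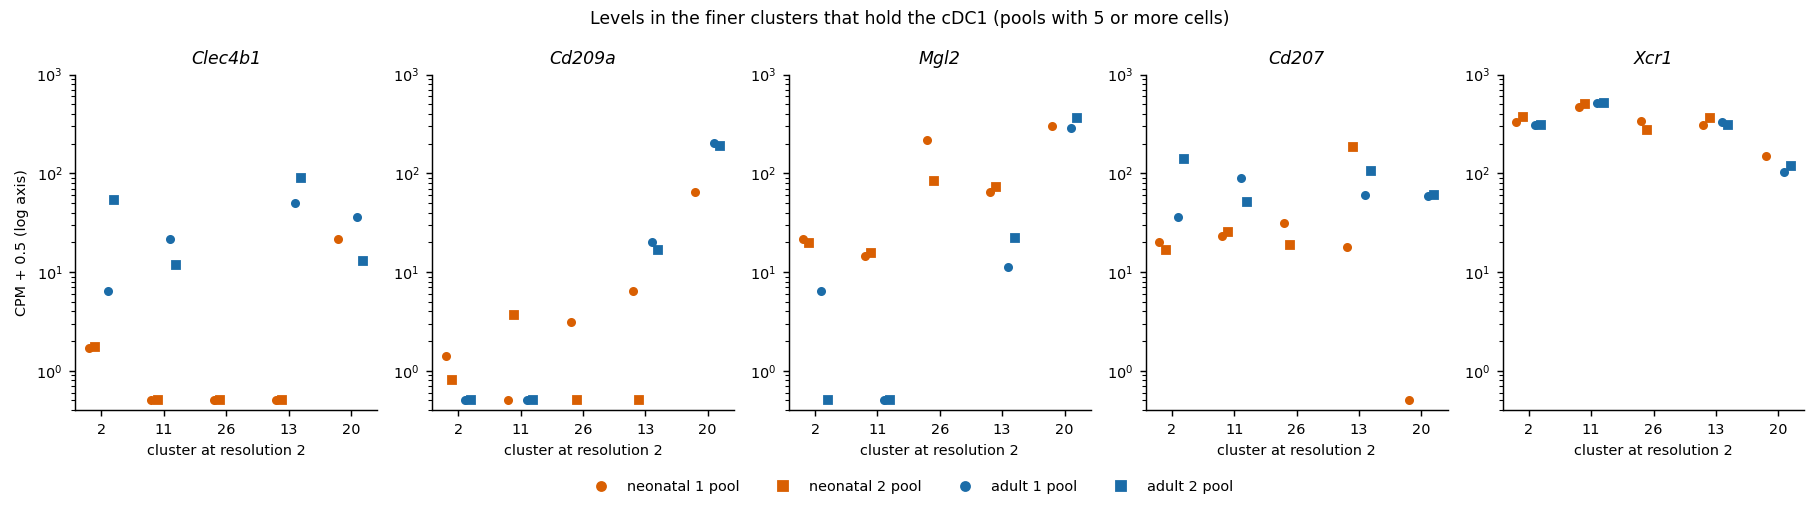
UMIs per 1000000 (CPM, with 0.5 added, log axis) of 4 of the genes and of the cDC1 marker Xcr1 in the 5 clusters at resolution 2 that divide the cDC1 class, with cluster 20 unnamed; points are pools with 5 or more cells, orange neonatal and blue adult. Adult Cd209a and Mgl2 are highest in cluster 20, where Xcr1 is lowest, while adult Clec4b1 is higher in cluster 13.

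With the mostly adult cells of cluster 20 left out, the age difference of Cd209a in cDC1 was smaller and still called (log2 -3.87 at resolution 2). The cDC1 of the 2 ages fell mostly in different clusters, 93.7% of neonatal cells in cluster 1 and 81.5% of adult cells in cluster 8 at resolution 1. Within cluster 1, Clec4b1 was at 0.835 and 0.863 CPM in neonates and 29.0 and 46.0 CPM in adults, whereas Cd209a was at 0 UMIs in both adult pools. Within cluster 8, Clec4b1 was at 2.59 and 0 CPM in neonates and 41.0 and 61.9 CPM in adults. The age difference of Clec4b1 was called within each of these clusters (log2 -5.40 and -4.95). That of Cd207 was called within cluster 1, with a raw ratio of 3.25-fold higher in adults (95% counting interval 2.32 to 4.47). Within cluster 8 the Cd207 difference was not called (log2 -0.32, edgeR adjusted p = 0.906). Summed cDC1 markers in the class were 7139, 7257, 5429 and 5027 CPM and summed cDC2 markers 923, 872, 1114 and 1268 CPM, and their part in these differences was not tested.

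Mature DC, the Ccr7+ state that DC enter on leaving the tissue, showed none of the genes in most cells. None of the 10 was detected in 91.4%, 91.5%, 95.3% and 89.8% of the mature DC, against 71.0%, 74.8%, 55.6% and 49.1% of cDC1. Only Mgl2, Clec12a and Cd207 had enough UMIs to be tested, and 1 of these 3, Cd207, was higher in adults, where 14.6% of the 7652 genes tested were called higher in adults and 13.4% higher in neonates. Cd207 had 0 and 1 UMI in neonates and 9 UMIs in each adult pool (13.3 and 13.7 CPM), a raw ratio of 61.8-fold with a 95% counting interval of 9.76 to 2574 (edgeR adjusted p = 2.61e-06). Those 18 adult UMIs came from few cells (2.78% and 4.00% of adult mature DC held one, and 0% and 3.06% after thinning), and with any 1 pool left out the gene had too few UMIs to be tested. Mgl2 was at 30.6, 74.0, 4.42 and 42.5 CPM and Clec12a at 37.3, 30.8, 14.7 and 54.7 CPM, with overlapping pools and no call (edgeR adjusted p = 0.651 and 0.848). The mature DC of the 2 ages fell in different clusters, 76.6% of neonatal cells in cluster 4 against 8.17% of adult cells, which were mostly in clusters 13 (52.4%) and 14 (39.4%). Within cluster 13 Mgl2 was at 341 CPM in neonates and 46.7 CPM in adults, a raw ratio of 7.30-fold with a 95% counting interval of 4.97 to 11.1 that was not tested. Cd209d had 15 neonatal and 0 adult UMIs over the class, at least 1.46-fold higher in neonates against a floor of 3 counts over the adult pools.

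The difference between the age effects was tested directly for pairs of DC classes, with each pool as a block. Between cDC1 and cDC2, 4 of 10 genes tested differed, where 6.44% of the 9767 genes tested did. Clec4b1 and Cd209a, higher in adults in both classes, had the larger adult excess in cDC1 (differences of -4.52 ± 0.31 and -4.16 ± 0.23 on the log2 scale, edgeR adjusted p = 1.73e-14 and 9.31e-17). Clec12a had the larger adult excess in cDC2 (0.65 ± 0.15, edgeR adjusted p = 0.00287), a call that held in 9 of 13 alternative settings and was lost without neonatal pool 1 (0.46, edgeR adjusted p = 0.202). Clec4a2 was on the adult side in cDC1 and on the neonatal side in cDC2 (-2.17 ± 0.35, edgeR adjusted p = 2.11e-05). Between cDC1 and mature DC, 4 of 8 genes tested differed, where 17.5% of the 9954 genes tested did. They were Clec4b1 (-6.18 ± 0.90, edgeR adjusted p = 5.69e-10), Cd209a (-6.81 ± 0.73, edgeR adjusted p = 3.07e-18), Clec12a (-0.78 ± 0.27, edgeR adjusted p = 0.0246) and Cd207 (3.92 ± 0.96, edgeR adjusted p = 0.000601). These rest on 3 adult UMIs of Clec4b1, 3 of Cd209a and 1 neonatal UMI of Cd207 in mature DC, and the call for Clec12a held in 2 of 13 alternative settings. The Cd209a difference here was -5.28 at resolution 2 (edgeR adjusted p = 8.87e-07).

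In classical monocytes, the Ly6c2+ blood-derived cells, 6 of 8 genes tested were higher in adults and 1 in neonates, where 10.9% and 6.58% of the 8358 genes tested were called in those directions. Clec4b1 (22 neonatal UMIs), Cd209a (20), Mgl2 (12) and Mrc1 (4) could pass the low-count filter through the adult pools. The adult count is therefore partly set by the filter. The ages fell in different clusters here, with 97.3% of neonatal cells in cluster 3 and 93.8% of adult cells in cluster 10, and no test was made within a cluster. Clec4b1 was at 4.59, 5.96, 51.1 and 51.6 CPM (log2 -3.46 ± 0.28, edgeR adjusted p = 3.1e-23). Cd209a was at 4.59, 4.97, 99.98 and 48.4 CPM (log2 -4.13 ± 0.39, edgeR adjusted p = 1.57e-06). Clec10a was at 20.7, 12.4, 79.4 and 62.9 CPM (log2 -2.28 ± 0.20, edgeR adjusted p = 1.66e-19). Among these genes the adult pools differed most for Cd209a. Mrc1 went from 2 and 2 UMIs to 29 and 11 UMIs (log2 -4.12 ± 0.57, edgeR adjusted p = 6.53e-10) and Mgl2 from 4.59 and 0.993 CPM to 20.6 and 8.87 CPM (log2 -2.53 ± 0.47, edgeR adjusted p = 7e-06). The call for Mgl2 was lost without adult pool 1 (log2 -1.80, edgeR adjusted p = 0.119).

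After thinning, the adult transcripts were detected in a minority of the classical monocytes. Cd209a was detected in 0.797%, 0.877%, 5.96% and 5.05% of them, Clec4b1 in 0.199%, 1.32%, 6.88% and 6.57%, and Clec10a in 2.39%, 1.75%, 7.80% and 6.57%. A low level in every cell would also leave most thinned cells without a UMI. These shares alone therefore do not show that only some of the classical monocytes held the transcripts. Where the lectins were allowed among the clustering genes, the classical monocyte class had 426, 373, 200 and 190 cells and the Cd209a call was lost (log2 -3.13, edgeR adjusted p = 0.364). Summed cDC2 markers in the class were 2290, 2292, 2475 and 2527 CPM and summed C1q macrophage markers 2439, 2966, 4517 and 3522 CPM, and their part in these differences was not tested. Of the signalling receptors, Clec12a was at 222, 249, 293 and 282 CPM (log2 -0.47 ± 0.09, edgeR adjusted p = 4.91e-06), a small adult excess. Clec4n was at 28.5, 19.4, 11.4 and 10.5 CPM and was called higher in neonates (log2 0.94 ± 0.30, edgeR adjusted p = 0.0164), a call that held in 8 of 14 alternative settings. Clec4a2 was at 221, 224, 182 and 207 CPM and did not pass the test (log2 0.01 ± 0.10, edgeR adjusted p = 0.973).

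Nonclassical monocytes, the vessel-patrolling Treml4+ cells, showed both directions among the signalling receptors, with all 4 genes tested called. Of these, 2 were higher in adults and 2 in neonates, where 9.80% and 9.82% of the 8850 genes tested were called. Clec4b1 (28 neonatal UMIs) could pass the low-count filter through the adult pools. Different clusters held the ages, cluster 0 with 98.8% of neonatal cells and cluster 7 with 95.8% of adult cells, and again no test was made within a cluster. Clec4n was at 131, 97.2, 10.8 and 13.4 CPM, a raw ratio of 9.35-fold higher in neonates (log2 3.11 ± 0.22, edgeR adjusted p = 8.17e-33), and was found in 15.7% and 10.6% of neonatal against 1.56% and 2.23% of adult cells. Clec4a2 was at 74.8, 71.4, 23.9 and 23.4 CPM (log2 1.51 ± 0.21, edgeR adjusted p = 3.48e-11). Clec4b1, in the same gene cluster, was at 4.04, 3.54, 41.8 and 55.7 CPM (log2 -3.79 ± 0.30, edgeR adjusted p = 2.81e-31). Clec4n and Clec4a2 were thus higher in both neonatal pools, and Clec4b1 in both adult pools. How often the pools of all genes separate in this way is not given here. Clec12a was at 220, 211, 232 and 242 CPM, and its call (log2 -0.25 ± 0.09, edgeR adjusted p = 0.0414) held in 4 of 14 alternative settings. The uptake receptors were at or under 5.57 CPM in every pool. Summed classical monocyte markers in this class were 5851, 6190, 2712 and 2670 CPM and summed neutrophil markers 436, 418, 316 and 354 CPM, and their part in these differences was not tested.

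C1q macrophages were few, at 23 to 41 cells per pool, but carried high levels of most of the genes. Of 8 genes tested, 4 were higher in adults and 1 in neonates, where 3.98% and 2.17% of the 3087 genes tested were called. Cd209a was at 22.9, 64.7, 383 and 318 CPM (log2 -3.07 ± 0.36, edgeR adjusted p = 4.76e-07), and this call held in all 12 alternative settings that tested it. Mrc1 was at 137, 214, 475 and 335 CPM (log2 -1.30 ± 0.27, edgeR adjusted p = 0.00282), Mgl2 at 507, 882, 1466 and 1089 CPM (log2 -0.999 ± 0.228, edgeR adjusted p = 0.0115) and Clec4b1 at 82.3, 198, 300 and 306 CPM (log2 -1.22 ± 0.32, edgeR adjusted p = 0.0171). For these 3 genes neonatal pool 1 was the lowest, and without it none was called (log2 -0.99, -0.63 and -0.71, edgeR adjusted p = 0.156, 0.436 and 0.527).

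Clec4n was again the neonatal gene in macrophages, at 178, 174, 58.3 and 28.3 CPM (log2 1.96 ± 0.44, edgeR adjusted p = 0.00498). Without adult pool 2 the call was lost (log2 1.45, edgeR adjusted p = 0.0911). Cd209d had 0, 3, 7 and 9 UMIs and did not pass the test (raw ratio 8.38-fold higher in adults, 95% counting interval 2.40 to 44.9, edgeR adjusted p = 0.113), in contrast to its neonatal excess in cDC2, although that contrast was not tested. Clec12a (119, 97.1, 158 and 159 CPM) and Clec4a2 (283, 283, 200 and 198 CPM) had pools that did not overlap but did not pass the test (edgeR adjusted p = 0.287 and 0.518). Clec10a was at 27.4, 52.6, 33.3 and 39.7 CPM and had too few UMIs to be tested. Summed C1q macrophage markers were uneven over these pools (8239, 9916, 3099 and 9503 CPM), summed cDC2 markers were 3150, 3458, 3907 and 4615 CPM, and 6 of 11 alveolar macrophage markers had 0 UMIs over the 4 pools, and their part in the result was not tested.

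**Figure D4:**
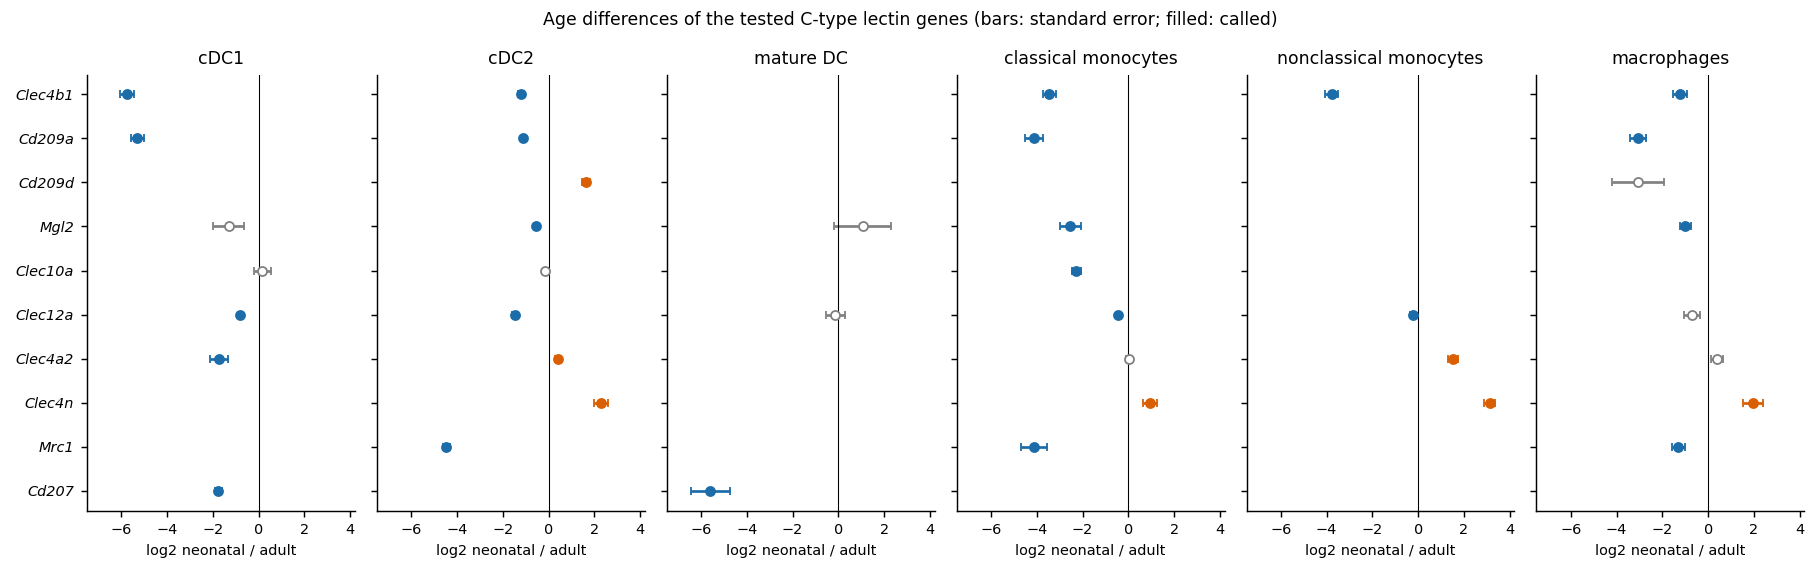
Age difference (log2 neonatal over adult, bars the standard error) of each gene tested in 6 cell classes by edgeR; filled points are called at an adjusted p under 0.05, orange higher in neonates and blue higher in adults, and open grey points are not called. Clec4b1 lies on the adult side in each of the 5 classes in which it was tested, and Clec4n on the neonatal side in each of its 4.

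Alveolar macrophages were found only among neonatal cells (55 and 41 cells), so they allow no comparison of ages. Their profile differed from that of the C1q macrophages: Mrc1 was at 602 and 638 CPM and was seen in 61.8% and 58.5% of thinned cells, while Mgl2 (0 and 2 UMIs), Cd209a (1 and 0 UMIs), Clec10a, Cd209d and Cd207 (0 UMIs) were at or near 0. Clec4n was at 209 and 146 CPM, Clec4a2 at 182 and 136 CPM and Clec4b1 at 61.6 and 84.9 CPM.

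Seen gene by gene, the activating receptor Clec4b1 was higher in adults in each of the 5 classes that tested it, and the activating receptor Clec4n was higher in neonates in each of the 4 that tested it. Cd209a was higher in adults in 4 of 4 and Mrc1 in 3 of 3. A gene could pass the low-count filter through the pools of a single age, as Clec4b1 did in cDC1, so these counts are partly set by the filter. The same holds for Clec4b1, Cd209a and Mrc1 in classical monocytes and for Clec4b1 in nonclassical monocytes. In classes without a test, all at low levels, Cd209a, Mrc1 and Clec4n in mature DC and Mrc1 in nonclassical monocytes were higher in both neonatal pools. These rest on 30, 4, 38 and 7 neonatal UMIs against 3, 0, 2 and 0 adult ones. Only for Clec4n did the 95% counting interval leave out equal levels (1.43 to 47.4). Mrc1 in cDC1 (2 neonatal and 8 adult UMIs) was higher in both adult pools. The share of all genes whose pools separate is not given here, so these separations are not read as differences. Pools overlapped for Cd209a in nonclassical monocytes, Clec4b1 in mature DC and Clec4n in cDC1. Clec4a2 changed direction between classes, being higher in adults in cDC1 and in neonates in nonclassical monocytes and, by the call that held in 7 of 14 settings, in cDC2. These classes come from the same pools and are not independent of each other.

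Sex could be set against age in 1 place, neonatal pool 2, in which 304 cells held Y-linked UMIs and no Xist and 2852 held Xist and no Y-linked UMIs. This is 1 pool, so no test between mice is possible, and values carry counting intervals only. In cDC1, Clec4b1 had 0 UMIs in the 87 Y-linked cells (at most 6.02 CPM) and 1.11 CPM in the 524 Xist cells, both under the 38.8 CPM of the lower adult pool. In cDC2, Mrc1 was at 7.33 CPM in the 19 Y-linked cells (interval 0.186 to 40.8) and at 22.4 CPM in the 155 Xist cells, both under the adult pools. Cd209d in cDC2 was at 337 CPM in Y-linked (247 to 450) and 201 CPM in Xist cells, both above the adult pools. In nonclassical monocytes Clec4n was at 118 CPM in Y-linked (79.1 to 170) and 104 CPM in Xist cells, again both above the adult pools. For these genes the Y-linked neonatal cells lay on the neonatal side. Clec12a in cDC1 was at 181 CPM in Y-linked (149 to 218) and 141 CPM in Xist cells, and Cd207 at 9.80 CPM (3.59 to 21.3) and 29.8 CPM, all under the adult pools. For some other called genes the Y-linked interval reached adult levels. Clec4a2 in cDC1 was at 6.53 CPM in Y-linked (1.78 to 16.7) and 1.39 CPM in Xist cells, against 8.25 and 9.97 in adults. Mgl2 in cDC2 was at 1869 CPM (1647 to 2114) and 1677 CPM, against 1965 and 2344 in adults. The part of sex in the age differences was not tested.

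Genes whose levels followed those of a member most closely were sought over 36 sums of 9 cell classes in 4 pools among 7710 genes, by Pearson's r of log2(CPM + 1). The sums share libraries and depth, so r is a description. Members were often each other's nearest genes: Cd209a was closest to Clec10a (r = 0.911), Clec4b1 to Cd209a (0.902) and Cd209d to Cd209a (0.840). Mgl2 was closest to Gfra2 (0.925) and Creb5 (0.915), and Mrc1 to Fcrls (0.895) and Mmp12 (0.878). Clec4a2 was closest to Gapt (0.958) and Adam15 (0.912), Clec12a to Wdfy3 (0.926) and Mpeg1 (0.911), and Clec4n to Siglece (0.909) and Pilra (0.901). Cd207 was closest to the unnamed gene model Gm43914 (0.878) and to the cDC1 receptor Xcr1 (0.820).

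The rest of the lectin family and the signalling genes downstream gave the setting. Of 38 other C-type lectin genes measured, 17 were tested in cDC1, of which 8 were higher in adults and 2 in neonates (14.9% and 12.0% of all genes), and 12 in cDC2, of which 5 and 1 were (9.47% and 6.23% of all genes). Cd72, an inhibitory lectin known from B cells, was at 1.35, 0.612, 18.2 and 19.4 CPM in cDC1 and at 8.80, 7.95, 76.5 and 69.3 CPM in cDC2 (log2 -4.24 and -3.28, edgeR adjusted p = 5.82e-16 and 7.39e-29), without overlap of pools in either class. Cd209b, a further gene of the DC-SIGN cluster, was at 69.6, 74.5, 8.50 and 46.8 CPM in cDC2, on the neonatal side like Cd209d (log2 1.28 ± 0.25, edgeR adjusted p = 9.05e-06). Adult pool 1 was the low one, and without it 0 of these other lectins were called higher in neonatal cDC2. In nonclassical monocytes the lectins split evenly, 5 higher in each age of 16 tested (9.80% and 9.82% of all genes), and Clec4d, another gene of the Dectin-2 cluster, was at 97.3, 84.8, 4.78 and 8.90 CPM (log2 3.59 ± 0.27, edgeR adjusted p = 4.33e-34). In classical monocytes 7 of 15 were higher in adults and 1 in neonates (10.9% and 6.58% of all genes), in mature DC 5 and 3 of 9 (14.6% and 13.4%), and in macrophages 1 of 7 was called, higher in adults (3.98%).

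The counts for signalling genes are to be read against the same shares of all genes, and several lie near them. Of 20 genes that carry activating lectin signals, 7 of 19 tested were higher in adults and 1 in neonates in cDC1, and 5 and 2 of 19 in cDC2. Fcer1g, the adaptor of Clec4b1 and Clec4n, was at 255, 250, 371 and 423 CPM in cDC1 (log2 -0.70 ± 0.06, edgeR adjusted p = 1.5e-16). In mature DC 5 and 3 of 19 were called in those directions, in classical monocytes 2 of 18 were, both higher in adults (10.9% of all genes in that direction), and the counts were in nonclassical monocytes 2 and 5 of 18 (9.80% and 9.82%) and in macrophages 1 and 2 of 18 (3.98% and 2.17%). Syk, the kinase these receptors engage, was at 261, 258, 134 and 174 CPM in nonclassical monocytes, on the neonatal side there (log2 0.64 ± 0.10, edgeR adjusted p = 7.51e-09). Of 12 genes of inhibitory signalling, 4 of 12 were higher in adults and 1 in neonates in cDC1, 1 and 3 of 12 in classical monocytes and 1 and 4 of 12 in nonclassical monocytes. In cDC2 2 of 11 were called, both higher in adults, in mature DC 2 of 8, both higher in neonates, and in macrophages 1 of 8, higher in neonates. Ptpn6, the phosphatase SHP-1 that binds the inhibitory motif, was at 115, 113, 44.2 and 53.2 CPM in mature DC, higher in neonates (log2 1.11 ± 0.19, edgeR adjusted p = 1.79e-05).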

How the data were processed

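The deposited file holds raw UMI counts, whole numbers without normalization, of 32285 genes and 2 hashtags in 14710 barcodes. Per the submitters' processing notes, Cell Ranger 6.1.2 and Seurat 4.2.0 were used with build mm10. Pools were read from the barcode suffixes that the series' design text lists, and columns not used came to 0. No barcode was shared between pools of 1 age (0), and 14 were shared between ages.

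Cells had to reach 500 genes and 1000 UMIs with no more than 10% of UMIs mitochondrial. Scrublet doublets were left out (101, 87, 21 and 14 in neonatal 1, neonatal 2, adult 1 and adult 2), as were barcodes with over 20% of the other hashtag (5, 0, 0 and 0). Leiden clustering (resolution 1, 30 components, 15 neighbours, 2951 variable genes, C-type lectins left out) gave 28 clusters. Clusters were named from marker lists. Macrophages means the C1q cluster. UMIs were summed per pool and class where each pool had 20 or more cells. edgeR 4.0.16 (filterByExpr, TMM, glmQLFit with robust=TRUE, glmQLFTest; R 4.3.3) tested ages, with Benjamini-Hochberg adjustment over all genes and 0.05 as the threshold. Against plain CPM, TMM moved log2 differences by -0.05 (cDC1), -0.19 (cDC2), -0.12 (mature DC), -0.19 (classical monocytes), -0.11 (nonclassical monocytes) and -0.15 (macrophages), and log2 differences are relative to that. The fits were tested on simulated counts with known changes. Alternatives were DESeq2 1.42.0, other filters, clusterings and thinning, and each pool left out. Class sums ran from 120035 UMIs (macrophages, adult pool 1) to 5175627 (cDC1, neonatal pool 1), which limits what could be tested in macrophages.

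The genes, marker lists and gene lists were chosen with earlier results of these data known. All 10 members are named, with, from each list, genes among the up to 4 called ones of smallest p per class. Likeness takes the 2 genes of highest r. Python 3.11.15 with scanpy 1.11.5 and leidenalg 0.10.2 was used.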

Additional observations from a re-analysis of the deposited data

Results flagged for a closer look

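The age difference of several genes was not the same in 2 cell classes, by a test of the difference itself (edgeR, log2 scale, first class minus second). Between cDC1 and cDC2 the differences were -4.52 for Clec4b1, -4.16 for Cd209a, 0.65 for Clec12a, which was called in 9 of 13 alternative settings, and -2.17 for Clec4a2. Between cDC1 and mature DC they were -6.18 for Clec4b1, -6.81 for Cd209a and 3.92 for Cd207, whose mature DC side rests on few UMIs, and -0.78 for Clec12a, which was called in 2 of 13 alternative settings and ranged from -2.10 to 0.0771. At resolution 2, where cDC1 lost the unnamed and mostly adult Plet1 and Ccl17 cluster, the Cd209a differences were -2.72 against cDC2 and -5.28 against mature DC.

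Some members were also found in cells outside the comparisons, above the highest upper 95% counting bound in NK or T cells of that age (10.5 to 15.9 CPM in adults, 60.2 to 91.0 CPM in neonates). In neutrophils Clec12a was at 146 CPM in neonates and 121 CPM in adults, Clec4a2 at 245 and 118 CPM, and Clec4n at 48.9 CPM in adults. An unnamed cluster of 24, 25, 36 and 26 cells, whose leading genes included Cd7, Arap2 and Bcl11a, held Cd209a at 355 CPM in neonates and 281 CPM in adults, Cd209d at 184 and 46.0 CPM, Clec10a at 196 and 127 CPM and Clec4a2 at 104 and 59.8 CPM. Its adult cells also held Clec4b1 at 64.4 CPM and Clec12a at 92.0 CPM. A second unnamed cluster, found among neonatal cells only (18 and 20 cells), had Clec4n at 516 CPM, Mrc1 at 279 CPM, Clec4a2 at 186 CPM and Clec12a at 181 CPM, and its leading genes included Adamdec1, Axl and F7. These values are levels in 2 pools per age and were not compared between ages.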

How the results depend on the processing

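Over the settings tried, 93 of 111 alternative counts of called genes stayed within 1.5 times the reported count. Of the alternative values of single genes whose difference was called, 453 kept direction and call, 57 kept the direction only and 1 reversed. The cause of each change was not tested, except where fewer UMIs or samples entered. Thinning every cell to 1500 UMIs, which leaves fewer UMIs, gave 0 called genes in mature DC (1 reported), 4 in classical monocytes (7), 1 in macrophages (5), 2 for cDC1 against cDC2 (4) and 1 for cDC1 against mature DC (4). DESeq2's Wald test gave 0 in mature DC, 3 in macrophages and 1 for cDC1 against mature DC. Keeping lectins among the clustering genes gave 3 in classical monocytes and 3 in macrophages, no filter on low counts gave 2 in mature DC, and cDC1 within cluster 8, a setting chosen after seeing the data, gave 3 (5 reported).

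With 1 pool left out, a fit in which the lone pool is taken to vary like the other age, the called genes ranged from 0 to 2 in mature DC (0 without neonatal pool 2 or adult pool 2) and from 2 (without neonatal pool 1) to 5 in macrophages. They ranged from 5 to 7 in cDC1, 7 to 9 in cDC2 and 5 to 7 in classical monocytes, and were 3 in nonclassical monocytes. The pool numbers do not pair the ages: correlations of same-numbered deviations were -0.06 to 0.12 over the classes. With the replicate block the called genes were 2 in mature DC and 3 in macrophages, and within 1.5 times the reported count elsewhere.

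Directions turned mostly where nothing was called. Mgl2 in cDC1 was 1.19 at resolution 0.5, 1.19 at resolution 2, 3.06 within cluster 1 and 0.52 within cluster 8, and its cDC1 minus cDC2 difference 1.34 and 1.71 at resolutions 0.5 and 2. Clec4a2 in classical monocytes was -0.0711 at resolution 0.5, -0.14 at resolution 2, -0.0710 with doublets kept and -0.0301 after thinning, and -0.0858 to 0.0938 with 1 pool left out. Clec10a was 0.0358 in cDC2 at resolution 0.5, and with 1 pool left out ranged from -0.0346 to 0.33 in cDC1, from -0.42 to 0.26 in cDC2 and from -0.25 to 0.74 for cDC1 minus cDC2, which thinning put at -0.0080. In mature DC, thinning gave -0.12 for Mgl2 and 0.14 for Clec12a, and Clec12a ranged from -0.81 to 1.08 with 1 pool left out. The called cDC1 minus mature DC difference of Clec12a ranged from -2.10 to 0.0771 with 1 pool left out.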
